A study of Mus musculus with 8 samples.

Results

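The plasminogen system, the matrix metalloproteinases (MMPs) and the tissue inhibitors of metalloproteinases (TIMPs) were followed here through 9 genes in JUN-TetON ESCs treated with bromodomain inhibitors. The genes were looked up by name in a table of 50600 gene names, and all 9 were found. They were the receptor *Plaur*, the activators *Plau* and *Plat*, the protease inhibitor *Serpine2*, the proteases *Mmp14* and *Mmp9*, and the inhibitors *Timp1*, *Timp2* and *Timp3*. With both inhibitors together (P+B), *Plaur*, *Timp1* and *Mmp14* fell against DMSO by 2.81-, 2.75- and 2.21-fold in mean TPM, the last of them near its threshold. *Timp3*, a low gene below the main filter, fell from a mean of 9 to 1.5 TPM and did not pass the test in every alternative fit. *Serpine2* did not pass the test in any comparison, and *Plau*, *Plat*, *Mmp9* and *Timp2* were at 4 TPM or lower in every library.

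Plasminogen is a secreted proenzyme, and urokinase (*Plau*), held at the cell surface by its receptor (*Plaur*), or tissue plasminogen activator (*Plat*) cleaves it to plasmin. Plasmin degrades fibrin and matrix proteins and activates several pro-MMPs, while serpins block the activators and TIMPs block the MMPs. AP-1, the dimer of JUN and FOS proteins, is a textbook activator of several of these genes, and together they are known for matrix turnover and invasion when cells leave an epithelium.

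The cells were mouse ESCs of the OG2 line (OG2ES) on a mixed background of 129SVJ, C57B6 and CBA, with the genotype c-Jun_TetOn_mESC. They were at passage P12 and grew without feeders in 2i medium with FBS and LIF. All 8 libraries had received doxycycline at 2 μg/ml, which switches on the JUN transgene, together with the solvent DMSO, a single compound (PFI-3 or BI-9564) or both (P+B), for 6 h by the labels. PFI-3 binds the bromodomains of SMARCA2, SMARCA4 (BRG1) and PBRM1, and BI-9564 binds those of BRD9 and BRD7, all subunits of BAF or PBAF chromatin remodelers. Each group had 2 libraries, and uninduced cells were not analysed here, so every value describes cells with JUN switched on. A source other than the labels gives JUN a head start over the compounds, and the sources used here do not settle how much of either compound P+B held. Whether the JUN-TetON line was 1 clone is not given in them either. Nothing states that the 2 libraries of a group came from separate cultures, so the p-values measure the spread between these libraries, which may be technical.

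Values were TPM that had been made whole numbers, which are per transcript length and so allow levels of different genes to be compared. The libraries summed to between 991574 and 991897, and 10285 to 10451 genes per library reached 5 TPM. TPM keeps no read number, so depth and counting error are unknown, and at 1 to 5 TPM the whole-number steps alone limit a fold change. *Jun* stood between 1569 and 3011 TPM, higher in replicate 2 than in replicate 1 of all 4 groups, and its groups overlapped. The stem cell marker *Pou5f1* stood between 1104 and 1333 TPM, and the fibroblast markers *Col1a2*, *Dcn*, *Lum*, *Pdgfra* and *Postn* were listed at 0 in all libraries. Of the other fibroblast markers, *Fbln1* stood between 22 and 33 TPM and *Thy1* between 0 and 4 TPM.

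Promoter sequences are shown because several members fell together in cells with induced JUN, and AP-1 recognises the letters TGACTCA. RefSeq windows on GRCm38.p6, from 250 bases before to 50 after the start, were held for 6 of the 9 members, namely *Plaur*, *Serpine2*, *Mmp14*, *Timp1*, *Timp2* and *Timp3*. Read on both strands, TGACTCA, whose reverse complement is TGAGTCA, was in 5.20% of 32851 such windows, and among the 6 members it was in that of *Plaur* alone, beginning 69 bases before the start. The longer palindrome TGACGTCA, known as the CRE, was in 1.79% of windows and in none of the 6. TGAGTAA, whose reverse complement is TTACTCA, a variant added after the windows were read, was in 2.68% of all windows and in that of *Timp1*, beginning at base 27 counted from the start. A match describes the letters only. On the minus strand, the windows of *Serpine2* (chr1:79858616-79858915) and *Timp2* (chr11:118355362-118355661) did not reach the upstream gene ends in GENCODE M21. Those ends are at 79861180 and 118355740, so the lack of a match in these 2 genes concerns the RefSeq start only. The *Plaur* sequence covers chr7:24462233-24462482, and the stretches of *Timp1* are the 250 bases before its start (chrX:20869916-20870165) and 30 bases after it (chrX:20870181-20870210). That of *Mmp14* is chr14:54431348-54431597, and all 4 stretches lie on the plus strand with any match in capitals.
Plaur, before the start: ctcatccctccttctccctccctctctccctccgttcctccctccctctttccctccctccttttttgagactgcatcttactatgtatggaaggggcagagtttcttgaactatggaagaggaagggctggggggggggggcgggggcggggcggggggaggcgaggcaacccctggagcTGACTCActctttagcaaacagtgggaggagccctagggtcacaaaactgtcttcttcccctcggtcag
Timp1, before the start: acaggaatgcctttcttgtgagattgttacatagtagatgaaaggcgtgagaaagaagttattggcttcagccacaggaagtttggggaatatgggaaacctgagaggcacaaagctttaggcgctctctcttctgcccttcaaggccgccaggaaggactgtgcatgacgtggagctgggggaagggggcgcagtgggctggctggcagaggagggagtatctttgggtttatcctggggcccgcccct
Timp1, after the start: cggtgggtggaTGAGTAAtgcgtccaggaa
Mmp14, before the start: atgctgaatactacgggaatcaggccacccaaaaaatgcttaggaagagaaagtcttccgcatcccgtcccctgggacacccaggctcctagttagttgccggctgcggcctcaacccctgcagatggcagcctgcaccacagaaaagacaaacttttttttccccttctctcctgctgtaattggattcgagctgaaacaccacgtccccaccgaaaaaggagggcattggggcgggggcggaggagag

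The members differed widely in level. *Plaur* (chromosome 7, 24462484 to 24475968, plus strand, GENCODE M21 on GRCm38) had the highest mean over the libraries, 198.75 TPM, followed by *Timp1* at 128.25 TPM. The 2 genes together made up between 86.6% and 92.8% of the summed TPM of the 9 members in every library. That sum was 537 and 484 TPM in the DMSO libraries, 404 and 361 in those of PFI-3, 336 and 342 in those of BI-9564, and 217 and 169 in those of P+B. The P+B libraries had the lowest sums and the DMSO libraries the highest, and no group overlapped with its neighbour in that order. In bulk RNA, fewer cells expressing a gene and less RNA per cell cannot be told apart.

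**Figure D1:**
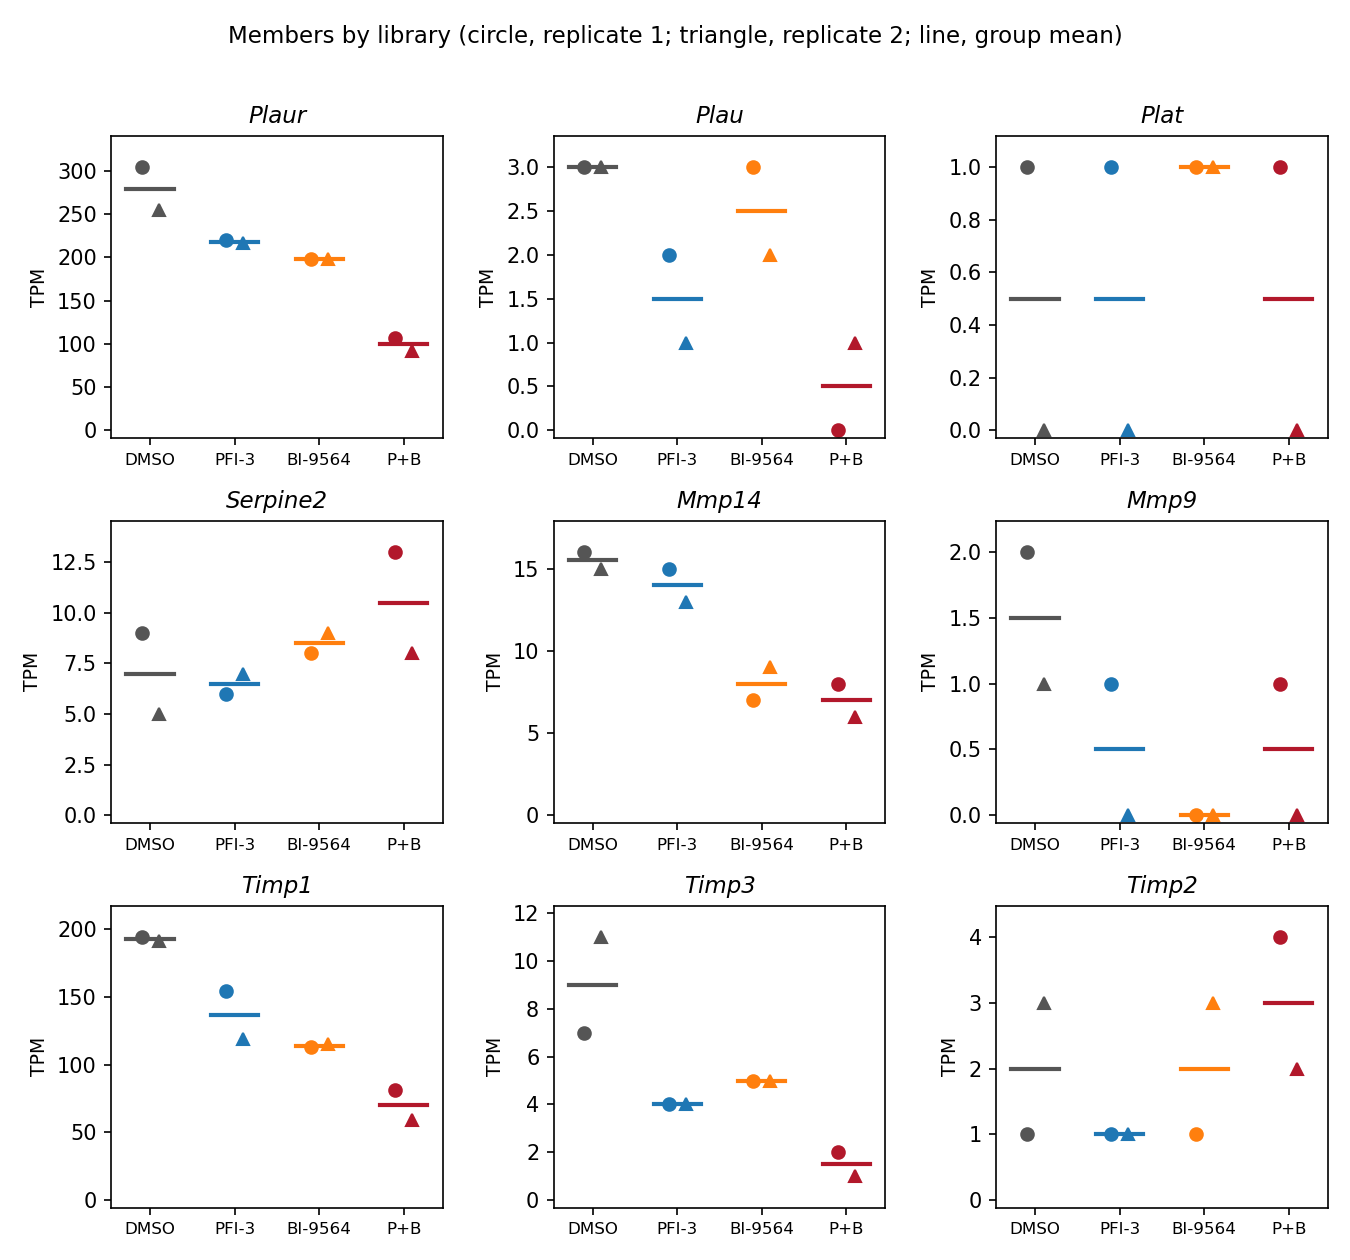
TPM (vertical axis, linear, scaled for each gene) of the 9 members in the 8 libraries, with DMSO, PFI-3, BI-9564 and P+B along the horizontal axis, circles for replicate 1, triangles for replicate 2 and lines for group means. *Plaur*, *Timp1* and *Timp3* have both P+B libraries below the 4 single-compound libraries and those below both DMSO libraries, while *Plat*, *Mmp9* and *Timp2* lie between 0 and 4 TPM.

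*Plaur*, which concentrates urokinase at the cell surface, stood at 304 and 255 TPM in the DMSO libraries. PFI-3 gave 220 and 216 TPM, BI-9564 gave 198 TPM in both libraries, and P+B gave 107 and 92 TPM. The order was DMSO, PFI-3, BI-9564 and P+B from high to low, without overlap between any neighbours. Of 10222 genes that averaged 5 TPM or more, 2.16% had both P+B libraries below all single-compound libraries and those below both DMSO libraries. That share does not rank the single compounds, and both BI-9564 libraries were below both PFI-3 libraries in 19.9% of these genes. Relative to the DMSO mean, *Plaur* stood at 78.0% after PFI-3, at 70.8% after BI-9564 and at 35.6% after P+B.

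limma was fitted to log2(TPM + 1) of those 10222 genes, a scale that understates the change of low genes, and a gene was counted as changed at a Benjamini-Hochberg adjusted p-value under 0.05 together with a change of 1.5-fold or more. Between P+B and DMSO, the log2 fold change of *Plaur* was −1.48 (SE 0.11, 95% interval −1.73 to −1.23), with a limma adjusted p of 0.00100 that ranked 6 of 10222 by p. *Plaur* kept this call whichever one of the 8 libraries was left out, at −1.61 to −1.35. Its call was lost only where the DMSO and P+B libraries were fitted by themselves, at a limma adjusted p of 0.10, a fit in which no gene passed the thresholds. An exact permutation test, two-sided, of 1 gene in 2 libraries against 2 gives at best p = 0.333, so single genes rest on the shared spread of limma.

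Both plasminogen activators were read at 3 TPM or less in every library. *Plau* (chromosome 14, 20836660 to 20843385, plus strand), which encodes urokinase, was at 3 TPM in both DMSO libraries. The values were 2 and 1 TPM for PFI-3, 3 and 2 for BI-9564, and 0 and 1 for P+B. Both P+B libraries were below both DMSO libraries, as were 17.5% of 13101 genes that averaged 1 TPM or more. In a limma fit of those genes, *Plau* gave −1.50 (SE 0.48, 95% interval −2.62 to −0.38) between P+B and DMSO and missed the threshold, with an adjusted p of 0.143. *Plat* (chromosome 8, 22757727 to 22782844, plus strand), which encodes tissue plasminogen activator, was at 1 and 0 TPM with DMSO, PFI-3 and P+B and at 1 TPM in both BI-9564 libraries. It had a mean under 1 TPM and was not tested. The receptor was thus read at 99.5 TPM or more in every group mean, beside activators at 3 TPM or less in every library.

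*Serpine2* (chromosome 1, 79794197 to 79861180, minus strand) encodes protease nexin 1, an inhibitor of thrombin and of both plasminogen activators. Its values were 9 and 5 TPM in DMSO, 6 and 7 in PFI-3, 8 and 9 in BI-9564, and 13 and 8 in P+B. The DMSO libraries overlapped with those of every treatment, so no order of the groups held against DMSO. Against DMSO, P+B gave 0.54 (SE 0.33, 95% interval −0.23 to 1.3, limma adjusted p = 0.383), BI-9564 gave 0.29 (95% interval −0.47 to 1.05, limma adjusted p = 0.729) and PFI-3 gave −0.05 (95% interval −0.81 to 0.71, limma adjusted p = 0.995). The intervals include both a fall and a rise of the gene.

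*Mmp14* (chromosome 14, 54431612 to 54445364, plus strand) encodes a membrane-anchored collagenase that also activates pro-MMP2. It stood at 16 and 15 TPM with DMSO and at 15 and 13 with PFI-3. BI-9564 gave 7 and 9 TPM, and P+B gave 8 and 6. DMSO and PFI-3 overlapped in the upper part of the range and BI-9564 and P+B in the lower part, and the pairs did not overlap with each other. Both P+B libraries were below both DMSO libraries in 18.9% of the 10222 genes. Relative to the DMSO mean, *Mmp14* stood at 90.3% after PFI-3, at 51.6% after BI-9564 and at 45.2% after P+B. The log2 fold change between P+B and DMSO was −1.06 (SE 0.23, 95% interval −1.58 to −0.53), with a limma adjusted p of 0.0414. This call was near its threshold and was lost whichever one of the 8 libraries was left out, at −1.24 to −0.87 with adjusted p-values of 0.0618 to 0.183. It was also lost with genes down to a mean of 1 TPM (0.0523), with no filter (0.0819) and in the fit of 4 libraries (0.155).

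*Mmp9* (chromosome 2, 164940780 to 164955850, plus strand), a secreted gelatinase, was at 2 and 1 TPM in DMSO, 1 and 0 in PFI-3, 0 in both BI-9564 libraries, and 1 and 0 with P+B. Its mean was under 1 TPM and it was not tested. The protease arm was therefore read from *Mmp14*, with the other members of the MMP family given further on.

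*Timp1* (chromosome X, 20870166 to 20874735, plus strand) encodes a secreted MMP inhibitor and overlaps with *Syn1* on the other strand. Whether counting used the strand is not given in the sources used here, so reads of the overlapping genes cannot be told apart. *Timp1* stood at 194 and 191 TPM in DMSO, 154 and 119 in PFI-3, 113 and 115 in BI-9564, and 81 and 59 in P+B. The order was the same as for *Plaur*, again without overlap between neighbours, although 119 TPM with PFI-3 lay near 115 with BI-9564. The group means were 70.9% of the DMSO mean for PFI-3, 59.2% for BI-9564 and 36.4% for P+B. Between P+B and DMSO the log2 fold change was −1.46 (SE 0.16, 95% interval −1.84 to −1.09), with a limma adjusted p of 0.00310. The call was lost without DMSO replicate 1 (limma adjusted p = 0.0562) and in the fit of 4 libraries (0.10).

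*Timp3* (chromosome 10, 86300372 to 86349506, plus strand) encodes the TIMP that binds to the matrix, and it overlaps with *Syn3* on the other strand. Its values were 7 and 11 TPM in DMSO, 4 and 4 in PFI-3, 5 and 5 in BI-9564, and 2 and 1 in P+B. All single-compound libraries lay between those of DMSO and P+B, a pattern shown by 1.79% of genes averaging 1 TPM or more. The fall from DMSO to P+B was 6.00-fold in mean TPM, for which whole-number steps alone allow as little as 3.40-fold. With a mean of 4.88 TPM over the libraries it was below the filter of 5 TPM. Among the 13101 genes that averaged 1 TPM or more, 1.89% were lower with P+B than DMSO past the thresholds, and *Timp3* was one of them at −2.0 (SE 0.33, 95% interval −2.77 to −1.23, limma adjusted p = 0.0285). The call was lost whichever library was left out, at −2.29 to −1.71 with adjusted p-values of 0.0793 to 0.154, with no filter (0.0511) and in the fit of 4 libraries (0.190).

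*Timp2* (chromosome 11, 118301069 to 118355740, minus strand), which bridges MMP14 to pro-MMP2, holds *Cep295nl* on the same strand. It was at 1 and 3 TPM in DMSO, 1 and 1 in PFI-3, 1 and 3 in BI-9564, and 4 and 2 in P+B. The groups overlapped with DMSO throughout, and between P+B and DMSO the fit gave 0.45 (95% interval −0.81 to 1.72, limma adjusted p = 0.688). *Timp2* was not distinguishable from DMSO at these low values, its interval includes both a fall and a rise, and the TIMPs were not tested against each other.

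**Figure D2:**
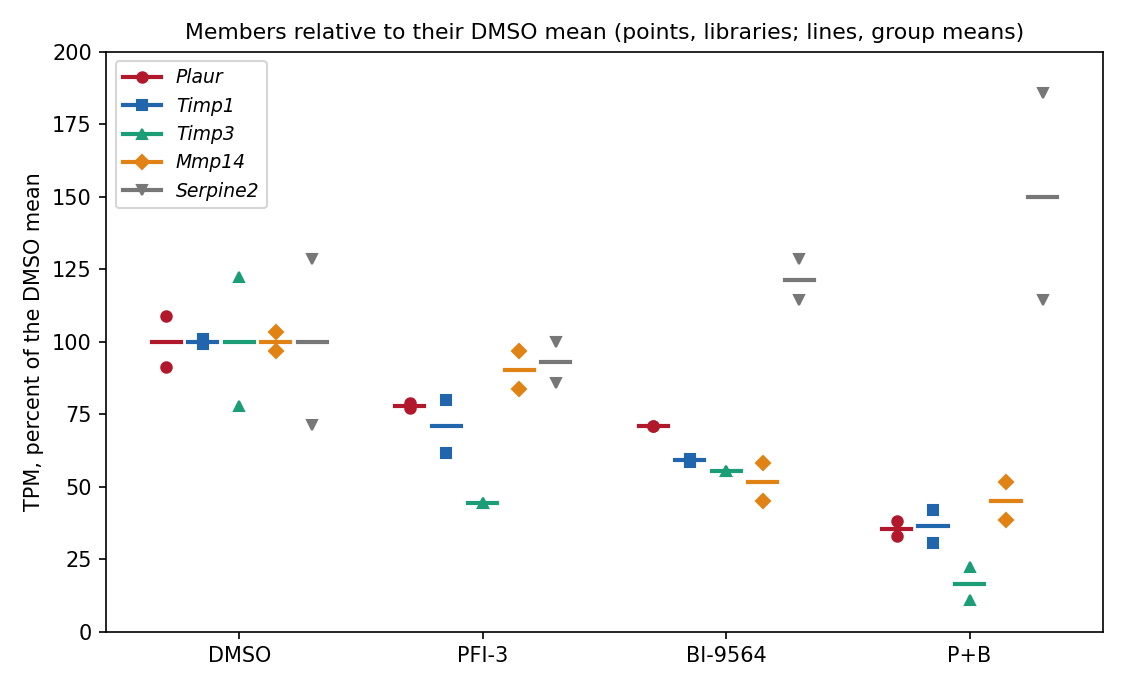
TPM of *Plaur*, *Timp1*, *Timp3*, *Mmp14* and *Serpine2* in each library (points) as a percent of the mean of the DMSO libraries (vertical axis, linear from 0), by treatment, with lines for group means. With P+B, *Plaur* and *Timp1* lie at 35.6% and 36.4%, *Timp3* at 16.7% and *Mmp14* at 45.2%, while the *Serpine2* libraries overlap with DMSO.

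Between P+B and DMSO, 3 of the 4 members that averaged 5 TPM or more were lower past the thresholds, beside 2.72% of all 10222 genes. The median log2 fold change of the 4 was −1.26, beside 0.06 over all tested genes, and 3 of 4 were below 0, beside 41.4% of all genes. The members were chosen with earlier results of these data known, so these values describe the 4 genes and are no test of the set. With the replicate number as a block, which the libraries' deviations called for, the same 3 members changed, and the share of genes lower past the thresholds was 4.10%. The members that passed the filter on low values were 4 of 9, and 7 of 9 reached a mean of 1 TPM.

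**Figure D3:**
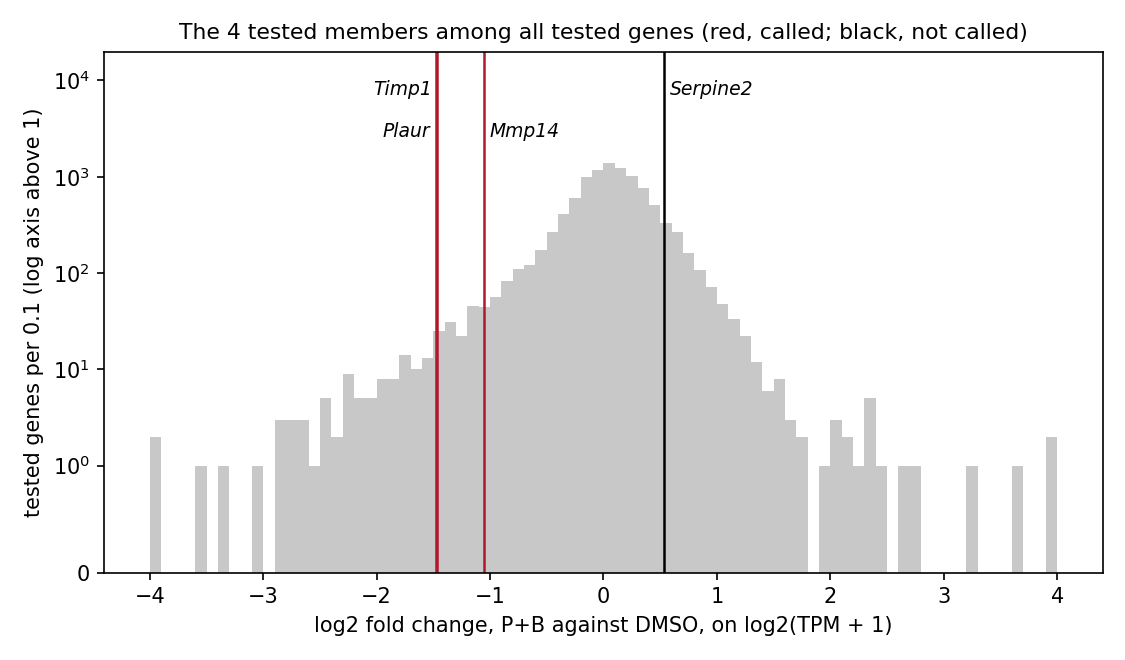
Number of tested genes (vertical axis, logarithmic above 1) by log2 fold change between P+B and DMSO on log2(TPM + 1) (horizontal axis, bins of 0.1), with lines at the 4 members that averaged 5 TPM or more. *Plaur* (−1.48) and *Timp1* (−1.46) nearly coincide, *Mmp14* lies at −1.06, and *Serpine2* lies at 0.54 on the other side of the median of 0.06.

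The comparisons with the single compounds asked how much of the fall each compound gave alone. They share the DMSO libraries with the comparison above, so the values are set side by side only. With PFI-3, *Plaur* gave −0.35 (95% interval −0.60 to −0.10) and *Timp1* −0.50 (95% interval −0.88 to −0.13). *Mmp14* gave −0.14 (95% interval −0.67 to 0.39) and *Timp3*, in the wider fit, −0.97 (95% interval −1.74 to −0.20). None of them passed the thresholds, with limma adjusted p-values of 0.594, 0.594, 0.963 and 0.708 in that order. No gene passed them with PFI-3 (0%) in limma, although 694 of 10222 and 2 of the 4 members had an unadjusted p-value under 0.05.

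With BI-9564, *Plaur* gave −0.49 (95% interval −0.74 to −0.24), *Timp1* −0.75 (95% interval −1.13 to −0.37) and *Mmp14* −0.88 (95% interval −1.41 to −0.36). *Timp3* gave −0.71 (95% interval −1.48 to 0.06). Their limma adjusted p-values were 0.131, 0.130, 0.160 and 0.397, so no member passed the thresholds, beside 0.108% of all genes in either direction. With the replicate block, *Timp1* changed (limma adjusted p = 0.0335), *Plaur* had the same adjusted p of 0.0335 at less than 1.5-fold, and 1.53% of genes changed. A miss here does not show that a single compound had no effect on these genes. The intervals of *Plaur* and *Timp1* lie below 0 for both compounds, but they are not adjusted for the number of genes tested. An unadjusted limma p-value under 0.05 was found for 694 of 10222 genes with PFI-3 and for 1523 with BI-9564.

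**Figure D4:**
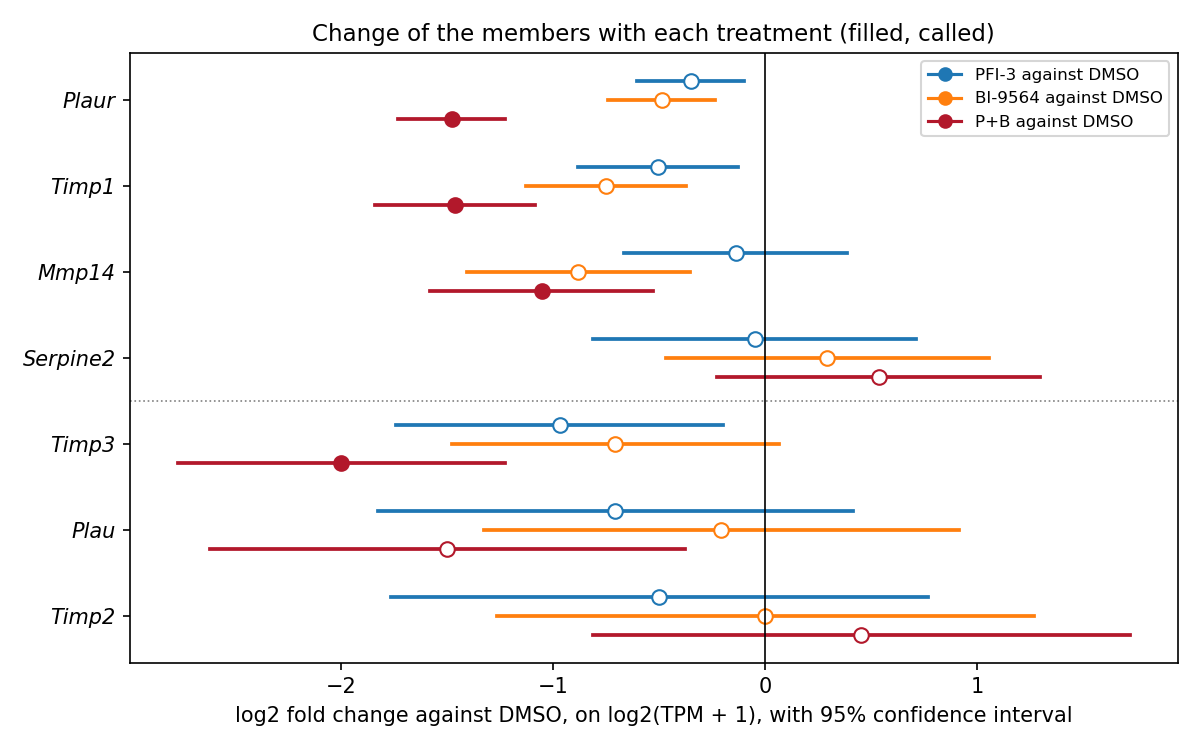
Log2 fold change against DMSO on log2(TPM + 1) (horizontal axis) with 95% confidence intervals for 7 members and 3 treatments, with filled points for changes past the thresholds. Members above the dotted line were tested among genes with a mean of at least 5 TPM and those below it among genes with a mean of at least 1 TPM. Only P+B has filled points, for *Plaur*, *Timp1*, *Mmp14* and *Timp3*.

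P+B was then compared directly with each compound. Against PFI-3, 2 of the 4 tested members were lower with P+B, beside 1.05% of all genes. *Plaur* gave −1.13 (SE 0.11, limma adjusted p = 0.00724) and *Timp1* −0.96 (SE 0.16, limma adjusted p = 0.0336). *Plaur* lost this call without PFI-3 replicate 1 (0.119), PFI-3 replicate 2 (0.109) or P+B replicate 2 (0.111), and *Timp1* whichever library was left out (0.0637 to 0.205), all as limma adjusted p-values. *Mmp14* gave −0.92 (95% interval −1.44 to −0.39, limma adjusted p = 0.106), and *Timp3* −1.03 (95% interval −1.80 to −0.26, limma adjusted p = 0.215).

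Against BI-9564, 1 of the 4 was lower with P+B, beside 0.196% of all genes. That gene was *Plaur*, at −0.99 (SE 0.11, 95% interval −1.24 to −0.74, limma adjusted p = 0.0305), and the call was lost whichever library was left out (0.0792 to 0.301). *Timp1* gave −0.71 (95% interval −1.09 to −0.34, limma adjusted p = 0.235), and *Timp3* −1.29 (95% interval −2.06 to −0.52, limma adjusted p = 0.400). *Mmp14* gave −0.17 (95% interval −0.70 to 0.35, limma adjusted p = 0.928), so its level with P+B was not distinguishable from that with BI-9564 alone. Between the single compounds, *Mmp14* was lower with BI-9564 than with PFI-3 at −0.74 (95% interval −1.27 to −0.22) without passing the thresholds (limma adjusted p = 0.230). *Plaur* gave −0.14 (95% interval −0.39 to 0.11, limma adjusted p = 0.622) and *Timp1* −0.25 (95% interval −0.62 to 0.13, limma adjusted p = 0.553). None of the 4 members passed the thresholds, beside 0.108% of all genes. An unadjusted limma p-value under 0.05 was found for 1 of the 4, beside 1448 of all 10222 genes.

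The last comparison set P+B against the sum of the log2 changes of the single compounds. No gene passed the thresholds (0%) in limma, and 333 of 10222 had an unadjusted p-value under 0.05. *Plaur* gave −0.64 relative to the sum (SE 0.16, 95% interval −0.99 to −0.28), with an unadjusted limma p of 0.00317 that ranked 20 of 10222 and an adjusted p of 1. *Timp1* gave −0.21 (95% interval −0.74 to 0.33), *Mmp14* −0.03 (95% interval −0.78 to 0.71) and *Serpine2* 0.29 (95% interval −0.78 to 1.37). Since the amount of either compound in P+B is not settled, the sum may not be the level that independent action would give.

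Ratios within a library do not depend on scaling. The ratio of *Timp1* to *Mmp14*, inhibitor to protease, was 12.1 and 12.7 in DMSO, 10.3 and 9.15 in PFI-3, 16.1 and 12.8 in BI-9564, and 10.1 and 9.83 in P+B. It was lower in both PFI-3 and both P+B libraries than in either DMSO library, and in BI-9564 the lower value lay next to the higher DMSO value. For single genes, both libraries were below both DMSO libraries in 12.8% of the 10222 with PFI-3 and 18.9% with P+B. The ratio was chosen after the values were seen, rests on *Mmp14* at 6 to 16 whole-number TPM, and was not tested. The ratio of *Plaur* to *Timp1* was 1.57 and 1.34 in DMSO, 1.43 and 1.82 in PFI-3, 1.75 and 1.72 in BI-9564, and 1.32 and 1.56 in P+B, with groups that overlapped with DMSO for PFI-3 and P+B.

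The gene lists from here on were chosen with earlier results of these data known, so their counts are a description. Other genes of the plasminogen system were read from a list of 18. Of these, 7 were tested between P+B and DMSO, 2 fell and none rose, beside 2.72% and 1.28% of all genes. Their median log2 fold change was −0.31, and 5 of 7 were below 0, beside 41.4% of all genes. *S100a10*, whose product binds plasminogen at the cell surface together with annexin A2, fell from 304 and 270 TPM with DMSO to 137 and 120 with P+B, at −1.15 (SE 0.17, limma adjusted p = 0.00944). *St14*, which encodes the membrane serine protease matriptase, fell from 94 and 85 TPM to 54 and 36, at −1.0 (SE 0.21, limma adjusted p = 0.0401). The gene of plasminogen itself, *Plg*, and *Vtn*, *Serpinf2*, *Serpina5*, *Klkb1*, *F12* and *Cpb2* were listed at 0 in all libraries. The transcripts of *Plaur* and of *S100a10* thus fell in the same libraries, while *Plg* was listed at 0. *Anxa2*, which encodes annexin A2, gave −1.30 without passing the thresholds (limma adjusted p = 0.125). *Plgrkt* (0.54, limma adjusted p = 0.171) and *Igf2r* (0.47, 0.0884) had values above 0 and did not pass either. Of the 7 tested genes, 6 had an unadjusted limma p-value under 0.05, beside 2306 of all 10222 genes.

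Of 21 further MMPs, 12 were listed at 0 in all libraries and 4 were tested, namely *Mmp2*, *Mmp11*, *Mmp15* and *Mmp17*. None of the 4 passed the limma thresholds between P+B and DMSO, and the median of the 4 was 0.31. An unadjusted limma p-value under 0.05 was found for 2 of them, beside 2306 of all 10222 genes. *Mmp2*, the proenzyme that MMP14 activates, was at 10 and 12 TPM with DMSO and 6 and 6 with P+B (−0.77, limma adjusted p = 0.0864). *Mmp11*, the other of the 2, was at 13 and 14 TPM with DMSO and 23 and 19 with P+B (0.60, limma adjusted p = 0.180). Of 13 regulators of metalloproteinases, 8 were tested and 1 fell, beside 2.72% of all genes. It was *Furin*, a proprotein convertase that activates pro-MMP14, which went from 50 and 55 TPM to 35 and 31, at −0.65 (SE 0.12, limma adjusted p = 0.0252). The median of the 8 was 0.06.

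Of 12 ADAM and ADAMTS proteases, 6 were tested and 1 fell, beside 2.72% of all genes, with a median of 0.21 over the 6. It was *Adamts9*, from 19 and 20 TPM to 12 and 10 (−0.78, SE 0.17, limma adjusted p = 0.0414). Of 5 cathepsins and membrane serine peptidases, 4 were tested and none changed in limma, with a median of −0.16. Of these, 0 had an unadjusted limma p-value under 0.05, beside 2306 of all 10222 genes. Among 13 AP-1 genes, 9 were tested, and *Fosl1*, *Atf3*, *Fosl2* and *Junb* fell, beside 2.72% of all genes. The median of the 9 was −0.53. *Fosl1* gave 47 and 67 TPM in DMSO, 29 and 35 in PFI-3, 28 and 43 in BI-9564, and 12 and 9 in P+B (−2.33, SE 0.25, limma adjusted p = 0.00296). Of the 38 tested genes of these lists, 0 passed the limma thresholds with PFI-3 or with BI-9564 against DMSO. An unadjusted limma p-value under 0.05 was found for 6 and 9 of them, beside 694 and 1523 of all 10222 genes.

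*Jun*, the induced gene, was at 1970 and 2877 TPM in DMSO, 1570 and 2227 in PFI-3, 2071 and 3011 in BI-9564, and 1569 and 2159 in P+B. Between P+B and DMSO it gave −0.37 (SE 0.26, limma adjusted p = 0.437). With the replicate block the SE was 0.04 and the limma adjusted p 0.00156, at less than 1.5-fold, so *Jun* was lower with P+B within each replicate number. Its part in the fall of the members was not tested. With PFI-3 *Jun* gave −0.35 against DMSO (95% interval −0.94 to 0.24, limma adjusted p = 0.876). With the replicate block the interval for PFI-3 was −0.44 to −0.26 (limma adjusted p = 0.116), so *Jun* was lower with PFI-3 too within each replicate number. Between P+B and PFI-3 it gave −0.02 (95% interval −0.61 to 0.57). With BI-9564 it gave 0.07 against DMSO (95% interval −0.52 to 0.66, limma adjusted p = 0.925). In the fit with the replicate block, *Jun* gave −0.44 between P+B and BI-9564 (limma adjusted p = 0.00635). Between BI-9564 and PFI-3 it gave 0.42 in that fit (limma adjusted p = 0.00961), both at less than 1.5-fold.

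Markers of other cell types moved in part with the members. The sum of 10 trophoblast markers was 205 to 268 TPM in DMSO, 163 to 193 in PFI-3, 149 to 177 in BI-9564 and 87 to 132 in P+B. Of these, 5 were tested and *Krt8* alone changed, from 163 and 114 TPM in DMSO to 53 and 30 in P+B (−1.75, SE 0.29, limma adjusted p = 0.0155), while *Krt7* was listed at 0 in all libraries. Among low markers that were not tested, *Cdx2* went from 1 and 0 to 5 and 10. In the other direction, *Hand1* went from 4 and 6 to 1 and 1, and *Gata3* from 6 and 2 to 1 and 1. *Tead4* made up most of the rest of the sum in DMSO, at 77 and 67 TPM, and gave 45 and 22 in P+B (−1.16, limma adjusted p = 0.0526). The median of the 5 was 0.33 with 2 of them below 0, and *Ascl2* (0.78, limma adjusted p = 0.212), *Tfap2c* (0.50, 0.363) and *Eomes* (0.33, 0.622) had values above 0. The sum of 10 extraembryonic endoderm markers was 491 to 637 TPM with DMSO and 354 to 421 with P+B, mostly *Sparc*, while *Sox7*, *Foxa2*, *Pdgfra* and *Thbd* were at 0. Of these, 2 were tested and neither passed the thresholds, *Sparc* (−0.57, limma adjusted p = 0.117) and *Col4a1* (−0.26, limma adjusted p = 0.543). *Gata4* was at 2 and 4 TPM in DMSO and 5 and 5 in P+B. Fibroblast markers summed to between 26 and 33 TPM in every library, mostly *Fbln1*. The sum of 10 stem cell markers was 4033 to 5239 TPM in DMSO, 4460 to 5485 in PFI-3, 3555 to 4621 in BI-9564 and 3711 to 4702 in P+B, with ranges that overlapped. The median log2 fold change of the 10 against DMSO was 0.36 for PFI-3, −0.28 for BI-9564 and −0.17 for P+B. Between P+B and DMSO, 7 of the 10 were below 0. *Tdgf1* alone among them passed the thresholds between P+B and DMSO, and it fell (−0.93, SE 0.14, limma adjusted p = 0.00916). Also below 0 were *Fgf4* (−0.58, limma adjusted p = 0.320), *Utf1* (−0.34, 0.0933), *Sox2* (−0.28, 0.368), *Zfp42* (−0.21, 0.769), *Pou5f1* (−0.13, 0.276) and *Dppa5a* (−0.10, 0.848). Values above 0 were those of *Esrrb*, at 86 and 58 TPM in DMSO and 141 and 100 in P+B (0.74, limma adjusted p = 0.120), and *Klf4*, at 32 and 25 and at 48 and 35 (0.52, limma adjusted p = 0.189). *Nanog* too was above 0 (0.07, limma adjusted p = 0.945). The part of these markers in the fall of the members was not tested.

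Genes with the most similar pattern were ranked by Pearson's r of log2(TPM + 1) over the 8 libraries, as a description without a test, since the libraries share groups. For *Plaur* they were *Ahnak* (0.992), *Itga6* (0.990) and *Tle4* (0.990). For *Timp1* they were *Chmp4c* (0.995), *Fam122b* (0.993) and *Gsn* (0.991). *Gsn*, which encodes gelsolin, was at 62 and 59 TPM with DMSO and 14 and 7 with P+B. For *Mmp14* they were *Triml2* (0.986), *Dnttip2* (0.984) and *Misp* (0.981), and *Misp* was at 32 and 29 TPM in DMSO, 19 and 16 in PFI-3, 5 and 6 in BI-9564, and 5 and 2 in P+B. For *Serpine2* they were *Copg2* (0.948), *Fnta* (0.941) and *Ttc17* (0.938).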

How the data were processed

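RNA-seq libraries of 8 samples (4 groups of 2) were read from a single table. Per the labels and the study's methods, libraries were made with a VAHTS mRNA-seq kit and sequenced on a NextSeq500, and the submitters' processing notes name bcl2fastq, Bowtie2 2.2.5, RSEM 1.3.0 and mm10. The deposited value per gene and library is a score, namely TPM made whole numbers by the authors; how the decimals were removed is not given in the sources used here. Raw counts were not used here, so DESeq2, the authors' tool, was not run. Of 50600 names, 94 were repeated and 33075 were at 0 in all libraries.

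log2(TPM + 1) was tested with limma 3.58.1 (R 4.3.3, eBayes with a mean trend), with all 4 groups in 1 fit and 4 residual degrees of freedom, for genes with a mean of at least 5 TPM (10222) and, for lower members, of at least 1 TPM (13101). Each comparison had its own Benjamini-Hochberg adjustment, and changed means an adjusted p-value under 0.05 and at least 1.5-fold. Across genes, the difference between replicates 1 and 2 in a group correlated with that in every other group (Pearson's r 0.143 to 0.236 over 6 pairs), which meets the criterion for pairing by number. Reported values nevertheless come from the fit without a block, fixed as the design, and the blocked fit enters as an alternative. The script was tested on simulated data.

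All 9 members are named. Of other lists, genes changed between P+B and DMSO are named (values for at most 3), with *Jun*, *Fosl1* and the 3 genes of most similar pattern. Members and lists were chosen with earlier results of these data known. A gene of the plasminogen list is not reported here and was left out of its counts. Values of genes at 0, of *Anxa2*, *Plgrkt*, *Igf2r*, *Mmp2*, *Mmp11* and markers were chosen after they were seen, as were the TGAGTAA motif and the ratios. Alternatives were a block for the replicate number, other pseudocounts (0.5, 5) and filters (mean 1 TPM or none), median centring, quantile normalization, no trend, only the 4 libraries compared, and leaving out each library.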

Additional observations from a re-analysis of the deposited data

How the results depend on the processing

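The 3 members that fell between P+B and DMSO kept their direction in every alternative. *Plaur* kept its call in all of them except the fit of only the 4 libraries compared, and *Timp1* in all except that fit and the one without DMSO replicate 1. *Mmp14* and *Timp3* lost theirs whichever library was left out, and the values stand in the report. With a library left out, the lone library of its group was assumed to vary like the other groups.

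Members past the thresholds between P+B and DMSO were 3, and 0 in the fit of 4 libraries and 1 to 2 with one library left out. Between P+B and PFI-3 they were 2, with 1 at a filter of a mean of at least 1 TPM, 0 without a filter, 0 without a trend, 0 in the fit of 4 libraries and 0 to 1 with one library left out. Between P+B and BI-9564 it was 1, and 0 in those same settings and with each library left out. Between BI-9564 and DMSO there were 0, and 1 (*Timp1*) with the replicate block.

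Over all genes, the counts past the thresholds were as follows. P+B against DMSO gave 409, and 719 with the replicate block, 201 without a filter, 0 in the fit of 4 libraries (1962 at an unadjusted limma p under 0.05) and 68 to 268 with one library left out. BI-9564 against DMSO gave 11, and 156 with the block, 17 with a pseudocount of 5, 21 with median centring, 0 at a mean of at least 1 TPM (1792 unadjusted), without a filter, without a trend or in the fit of 4 libraries, and 0 to 1 with one library left out. P+B against PFI-3 gave 134, and 351 with the block, 77 at a mean of at least 1 TPM, 6 without a filter, 4 without a trend, 0 in the fit of 4 libraries and 0 to 51 with one library left out. P+B against BI-9564 gave 20, and 82 with the block, 2 at a mean of at least 1 TPM, 0 without a filter, 2 without a trend, 0 in the fit of 4 libraries and 0 to 7 with one library left out. BI-9564 against PFI-3 gave 11, and 151 with the block, 0 with either other filter, without a trend or in the fit of 4 libraries, and 0 to 1 with one library left out. PFI-3 against DMSO and the sum contrast each gave 0, and 0 to 1 with one library left out. The replicate block changed no other call of a member, and the causes of these moves were not tested. Fewer residual degrees of freedom in the fit of 4 libraries (2 in place of 4) and more genes to adjust over with a wider filter are part of how those settings are built.

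Directions turned with a library left out only for members that did not pass. *Serpine2* ranged from −0.42 to 0.32 between PFI-3 and DMSO, −0.076 to 0.66 between BI-9564 and DMSO, −0.076 to 0.56 between P+B and BI-9564, and −0.076 to 0.66 in the sum contrast. *Mmp14* ranged from −0.35 to 0.0090 between P+B and BI-9564 and from −0.21 to 0.15 in the sum contrast, and *Timp1* from −0.43 to 0.017 in the sum contrast. *Timp2* ranged from −0.047 to 0.95 between P+B and DMSO and, likewise, between P+B and BI-9564. The fit of 4 libraries cannot give the sum contrast. TPM without read numbers leaves the counting error of low members unknown.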
